A study of Mus musculus with 6 samples.

Results

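The 9 genes described here are markers of the fibroblasts that build the meninges, the coverings of the brain. They were measured in adult mouse cerebral cortex, and fall into 3 solute transporters (Slc6a13, Slc22a6 and Slc47a1), 4 small leucine-rich proteoglycans (Dcn, Lum, Ogn and Fmod), the retinoic acid enzyme Aldh1a2 and the membrane protein Islr. They were taken by symbol through the GENCODE M21 annotation from the 55450 genes counted, and all 9 were found and all 9 passed the filter on low counts. The series holds 3 libraries of cortex labelled heterozygous for Setd5 and 3 of wild type cortex, all made from polyadenylated RNA. Setd5 encodes a chromatin protein with a SET domain, and the study profiles transcription in cortex that carries its mutation. The labels give the animals as adult and name no strain, sex, allele or cell type in which the gene is altered, nor whether each library came from its own animal, so any p-value reflects only how far the libraries themselves scatter, part of which may be technical.

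Meningeal fibroblasts lie over the cortex and follow its larger vessels inward, where they lay down collagen and proteoglycans. Small leucine-rich proteoglycans bind collagen fibrils and set their width and spacing. Some fibroblasts of the arachnoid form a barrier and carry transporters of organic solutes that are otherwise best known from kidney and liver. Aldh1a2, which makes retinoic acid from retinal, is a classical marker of the meninges in the mouse. In bulk tissue, fewer cells of a type and less RNA per cell cannot be told apart.

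Totals ran from 82850628 to 92860628 counts per library, and the members had between 162 and 2902 counts in a library. Setd5 itself was at 69.5, 68.7 and 75.3 CPM (counts scaled to library size) in heterozygous libraries, against 111, 97.0 and 108 CPM in wild type libraries, with no overlap. The difference in log2 was -0.56, with a standard error (SE) of 0.07, and its adjusted p by edgeR's quasi-likelihood test was 0.258. Setd5 passed an adjusted p under 0.05 by DESeq2 (3.08e-07), by edgeR's likelihood ratio test (7.31e-05), in the quasi-likelihood test over every gene with a count (0.0119) and by quality-weighted limma-voom (0.0444), at log2 differences of -0.59 to -0.56. The cortical markers Slc17a7 of excitatory neurons (865 against 839 CPM) and Aqp4 of astrocytes (139 against 169 CPM, means of heterozygous and of wild type libraries) were both abundant. High counts of Xist, the RNA of the inactive X chromosome, were found in 1 library of each genotype.

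The 250 bases before the RefSeq start (build GRCm38.p6) are shown for 4 members that differ in role and in base composition. Of these 1 is a transporter, 2 are proteoglycans and 1 is the retinoic acid enzyme. Whether the start regions bear on how the members vary between libraries was not tested. RefSeq sequence was matched for 6 of the 9 members, in 8 entries. Letters in capitals mark matches, on either strand, to the CCAAT box (CCAAT), the TATA box (TATAAA), the GC box (GGGCGG), the nuclear receptor element AGGTCA or the forkhead core GTAAACA. All are on the plus strand, and the 4 windows are chr19:8617746-8617995 for Slc22a6, chr13:49607765-49608014 for Ogn, chr1:134037004-134037253 for Fmod and chr9:71215539-71215788 for Aldh1a2.
Slc22a6: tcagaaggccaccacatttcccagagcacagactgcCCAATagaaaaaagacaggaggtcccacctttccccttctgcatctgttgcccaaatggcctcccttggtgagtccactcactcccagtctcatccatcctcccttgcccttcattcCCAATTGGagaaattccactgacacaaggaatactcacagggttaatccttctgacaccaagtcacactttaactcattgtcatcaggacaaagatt
Ogn: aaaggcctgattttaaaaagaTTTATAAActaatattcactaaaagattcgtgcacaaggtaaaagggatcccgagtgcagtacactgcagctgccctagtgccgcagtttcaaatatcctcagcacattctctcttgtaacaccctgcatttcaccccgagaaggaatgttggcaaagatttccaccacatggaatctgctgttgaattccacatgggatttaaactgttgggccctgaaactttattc
Fmod: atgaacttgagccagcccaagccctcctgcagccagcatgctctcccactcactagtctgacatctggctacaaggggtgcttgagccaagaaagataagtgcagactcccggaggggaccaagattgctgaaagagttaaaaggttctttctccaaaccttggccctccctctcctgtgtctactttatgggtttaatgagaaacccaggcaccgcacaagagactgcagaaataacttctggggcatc
Aldh1a2: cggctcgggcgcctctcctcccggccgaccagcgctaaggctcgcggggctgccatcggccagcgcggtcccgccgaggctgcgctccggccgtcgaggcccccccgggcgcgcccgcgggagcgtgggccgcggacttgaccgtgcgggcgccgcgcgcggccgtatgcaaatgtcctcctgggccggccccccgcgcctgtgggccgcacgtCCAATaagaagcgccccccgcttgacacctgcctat

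Bases G and C made up 77.6% of the Aldh1a2 window, 51.2% of that of Fmod, 48.4% of that of Slc22a6 and 42.0% of that of Ogn. A CCAAT box was found in 3 of the 8 entries, against 33.8% of all 32851 promoter entries of this length. One of these lies in the Aldh1a2 window with its first base at -36 from the start. Slc22a6 holds 3 matches, of which those at -97 and -94 overlap on opposite strands. The TATA box matched only in the Ogn window, at -229 and -227 in overlapping letters on both strands, against 12.4% of all entries. No match to these 5 motifs was found in the Fmod window. A GC box stood in 1 of the 8 entries, of Slc6a13, against 32.7% of all entries. The nuclear receptor element stood in 1, also of Slc6a13, against 14.0%, and the forkhead core in 0, against 3.17%. A match is a description of letters and not of a bound site.

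All 9 members had a lower fitted level in heterozygous than in wild type cortex, and 0 of the 9 passed the test. The median log2 difference of the members was -0.59, beside -0.0005 over the 27939 genes tested, of which 50.1% had a negative difference. At an adjusted p under 0.05 by edgeR's quasi-likelihood test with Benjamini-Hochberg adjustment the share of all genes called was 0%, and the members' adjusted p ran from 0.797 to 0.891. At an unadjusted p under 0.05, 4 members were lower, where 3.38% of all genes tested were lower at that level. The libraries of the genotypes did not overlap for 1 member, Slc6a13, where 5.85% of all genes tested lay lower without overlap. DESeq2 called 0 of the 9, with adjusted p from 0.171 to 1.0, and 0.251% of the 24679 genes to which it gave an adjusted p. The members were chosen with earlier results of these data known, so these counts are a description.

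A shared arrangement of the libraries stands behind these values. Wild type replicates 1 and 2 lay above every heterozygous library for all 9 members, an arrangement that 11.4% of all genes tested had. Wild type replicate 3 lay below all heterozygous libraries for 5 members, within their range for 3 and above it for 1. The arrangement with wild type replicates 1 and 2 above and wild type replicate 3 not above every heterozygous library held for 8 members and for 5.58% of all genes tested. Summed over the members, levels were 72.0, 67.2 and 74.0 CPM in the heterozygous libraries, against 110, 137 and 61.9 CPM in the wild type libraries. Here and below the 3 values of a group follow the replicate numbers, which are names without an order.

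**Figure D1:**
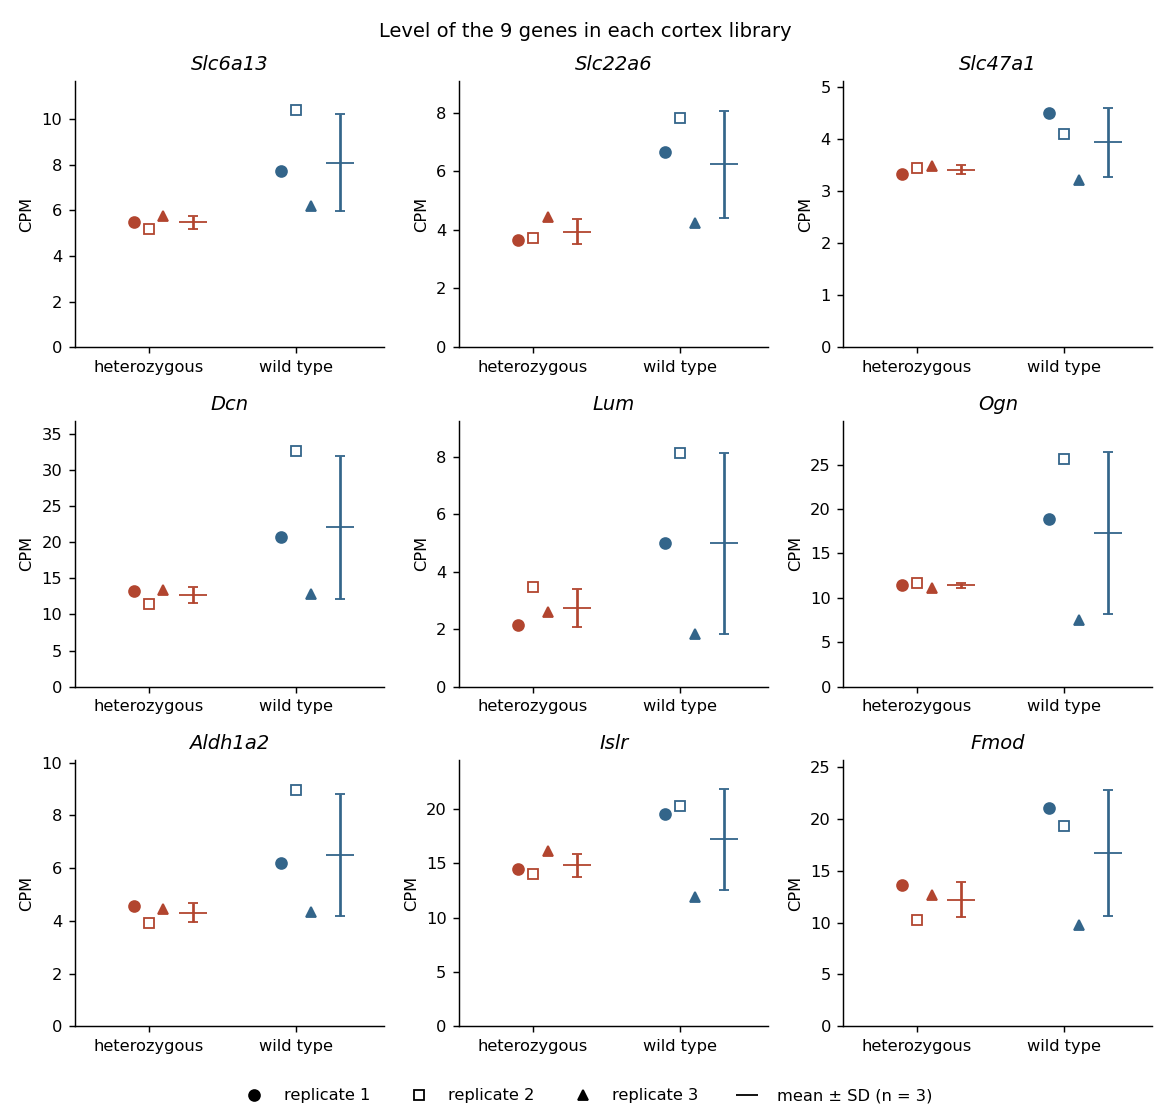
CPM (vertical axes, from 0) of each of the 9 genes in heterozygous (left, red) and wild type (right, blue) libraries, with the mean ± SD of 3 libraries beside the points. Heterozygous libraries lie close together, while wild type replicates 1 and 2 lie above them for every gene and wild type replicate 3 lies within or below their range for 8 of the 9.

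Slc6a13 (ENSMUSG00000030108.14, chr6:121300227-121337733, plus strand) encodes a carrier of GABA and taurine known from meninges, liver and kidney. It was at 5.48, 5.18 and 5.75 CPM in heterozygous libraries, against 7.74, 10.4 and 6.18 CPM in wild type libraries. The groups did not overlap, although wild type replicate 3 stood close to heterozygous replicate 3. The log2 difference was -0.57 (SE 0.17, 95% interval -0.95 to -0.18), or a heterozygous level of 67.5% of that in wild type, and the adjusted p by edgeR was 0.797. A two-sided exact permutation test on CPM gave 0.1 for this gene, as low as 3 libraries against 3 can reach. The gene lies 8.15 Mb from the end of Setd5 on the same chromosome.

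Slc22a6 (ENSMUSG00000024650.5, chr19:8618039-8628299, plus strand) encodes an organic anion transporter that in kidney takes up drugs and metabolites. Its level was 3.67, 3.71 and 4.43 CPM in heterozygous libraries, against 6.67, 7.80 and 4.22 CPM in wild type libraries. Of the wild type libraries only replicate 3 lay inside the heterozygous range. The log2 difference of -0.66 (SE 0.21, 95% interval -1.13 to -0.20) had an adjusted p of 0.797 by edgeR. Slc47a1 (ENSMUSG00000010122.14, chr11:61343401-61378345, minus strand), an exporter of organic cations, showed the narrowest spread of the members. It stood at 3.32, 3.44 and 3.48 CPM in heterozygous libraries, against 4.51, 4.09 and 3.21 CPM in wild type libraries. Wild type replicate 3 was the lowest of the 6 libraries here, and the log2 difference was -0.20 (SE 0.15, 95% interval -0.54 to 0.13).

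Among the proteoglycans, Dcn and Lum are neighbours, with Lum starting 47.0 kb after the end of Dcn. Dcn (ENSMUSG00000019929.16, chr10:97479609-97518143, plus strand) encodes decorin, which coats collagen fibrils and binds growth factors such as TGF-beta. It was at 13.3, 11.5 and 13.4 CPM in heterozygous libraries, against 20.8, 32.6 and 12.9 CPM in wild type libraries. Wild type replicate 3 again stood among the heterozygous libraries. The log2 difference was -0.79 (SE 0.27, 95% interval -1.39 to -0.20), with an adjusted p of 0.828 by edgeR. Lum (ENSMUSG00000036446.5, chr10:97565128-97572703, plus strand) encodes lumican, a keratan sulfate proteoglycan that orders fibrils in cornea and dermis. It ranged most widely of the members, with 2.15, 3.46 and 2.60 CPM in heterozygous libraries, against 4.99, 8.13 and 1.84 CPM in wild type libraries. Both the highest and the lowest library were wild type, 4.43-fold apart, and the log2 difference was -0.87 with an SE of 0.43 and a 95% interval from -1.82 to 0.09.

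Ogn (ENSMUSG00000021390.6, chr13:49608046-49624501, plus strand) encodes osteoglycin, also called mimecan, a proteoglycan known from bone and cornea. Its 3 heterozygous libraries nearly coincided, at 11.4, 11.7 and 11.1 CPM, against 18.9, 25.6 and 7.54 CPM in wild type libraries. The coefficient of variation was 2.41% among heterozygous and 52.6% among wild type libraries. The log2 difference was -0.61 (SE 0.33, 95% interval -1.36 to 0.14). Fmod (ENSMUSG00000041559.7, chr1:134037254-134048277, plus strand) encodes fibromodulin, which regulates collagen fibrils in tendon. It was at 13.6, 10.3 and 12.7 CPM in heterozygous libraries, against 21.1, 19.3 and 9.78 CPM in wild type libraries. Fmod and Slc47a1 were the members whose highest library was wild type replicate 1 and not 2. The Fmod log2 difference was -0.45 (SE 0.24, 95% interval -1.0 to 0.09).

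Aldh1a2 (ENSMUSG00000013584.5, chr9:71215789-71296243, plus strand) was at 4.58, 3.92 and 4.44 CPM in heterozygous libraries, against 6.19, 8.97 and 4.34 CPM in wild type libraries. Wild type replicate 3 was within the heterozygous range. Its log2 difference was -0.59 (SE 0.23, 95% interval -1.10 to -0.08), with an adjusted p of 0.838 by edgeR. Islr (ENSMUSG00000037206.15, chr9:58156268-58204306, minus strand) encodes a protein with leucine-rich repeats and an immunoglobulin domain, also called meflin, that marks mesenchymal stromal cells. It was at 14.5, 14.0 and 16.1 CPM in heterozygous libraries, against 19.5, 20.3 and 11.9 CPM in wild type libraries, and wild type replicate 3 was lowest. The log2 difference was -0.22 (SE 0.18, 95% interval -0.61 to 0.18). Islr shares 181 exonic bases with its neighbour Islr2, a neuronal relative at a mean of 54.3 against 44.3 CPM in heterozygous and wild type libraries, so reads there cannot be told apart. Of all stretches of 50 bases in the Islr transcripts 5.05% also occur in Islr2. For Slc6a13 that share was 0.14%, all in Slc6a12, and for the other 7 members it was 0%.

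**Figure D2:**
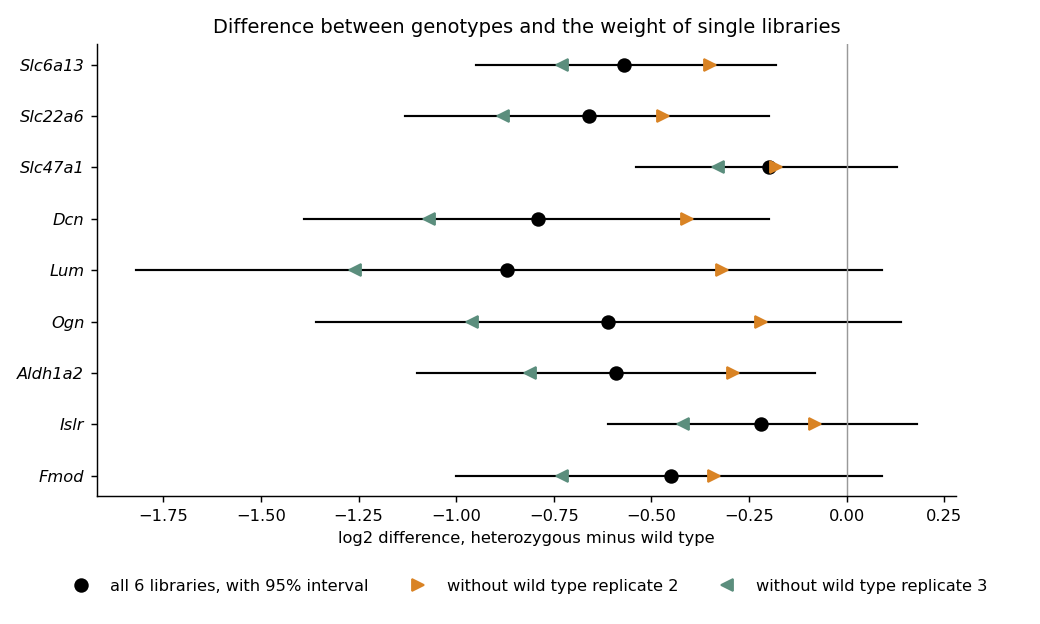
Log2 difference of each gene, heterozygous minus wild type (horizontal axis), with all 6 libraries and its 95% interval (black), and with wild type replicate 2 (orange) or 3 (green) left out. Every value lies below 0, and leaving out replicate 2 or 3 moves the values in opposite directions.

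Single wild type libraries set the size of these differences. Without wild type replicate 2 all 9 members stayed negative and all 9 lay closer to 0, with a median of -0.32. Dcn was then at -0.41, Lum at -0.32, Ogn at -0.22, Aldh1a2 at -0.29, Islr at -0.08 and Slc6a13 at -0.35, each moved by over 1.5 times, and 2 members, Slc6a13 and Slc22a6, stood at an unadjusted p under 0.05, where 5.13% of all genes were lower at that level. Without wild type replicate 3 the median was -0.81, all 9 members stood at an unadjusted p under 0.05 where 3.76% of all genes were lower at that level, and 0 passed. The adjusted p by edgeR then ran from 0.101 for Ogn, at a log2 difference of -0.96, to 0.686 for Slc47a1, at -0.33. Ogn, Slc47a1, Fmod (-0.73) and Islr (-0.42) moved by over 1.5 times in that fit. Without wild type replicate 1 it was Slc47a1 (-0.09), Islr (-0.12) and Fmod (-0.25) that moved so far.

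The members scattered more widely among wild type than among heterozygous libraries, which is given as a description. The standard deviation of log2 CPM was larger in wild type than in heterozygous libraries for all 9 members and for 64.1% of genes tested. Its median over the members was 0.12 in heterozygous and 0.52 in wild type libraries. Over the 18985 genes with a mean of at least 1 CPM it was 0.09 and 0.13 in the same order. Lum was the member with the widest heterozygous spread, with a coefficient of variation of 24.2% against 63.1% in wild type libraries. The members' mean log2 level, with the wild type mean set to 0, was -0.49, -0.51 and -0.41 in heterozygous libraries, against 0.17, 0.47 and -0.64 in wild type libraries.

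**Figure D3:**
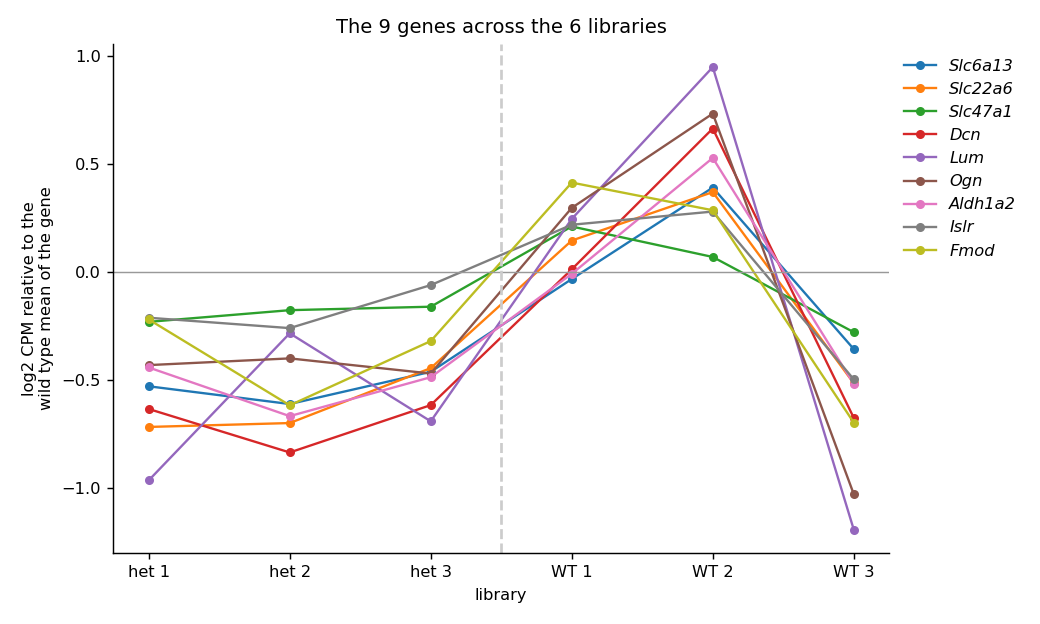
Log2 CPM of each of the 9 genes relative to its own wild type mean (vertical axis) in the 6 libraries (horizontal axis, het for heterozygous and WT for wild type). Lines only join the points of a gene, and show that wild type replicates 1 and 2 are high and wild type replicate 3 is low for the members together.

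Members of different roles followed each other across the libraries. Over the 36 pairs of members, Pearson's r of log2 CPM across the 6 libraries ran from 0.751 to 0.998 with a median of 0.87, and Spearman's rho from 0.43 to 0.94 with a median of 0.77. Two-sided exact permutation p-values of r ran from 0.00278 to 0.075. After Benjamini-Hochberg adjustment over the pairs they ran from 0.0424 to 0.075, with 23 pairs under 0.05. Those of rho ran from 0.133 to 0.419, with 0 pairs under 0.05. Because the members were chosen with earlier results of these data known, these p-values and counts are a description. The pairs share genes and libraries and are not separate tests, and any shift between the genotypes enters each r. No share over other pairs of genes is given for comparison. The closest pair was decorin and the retinoic acid enzyme, Dcn with Aldh1a2 (r = 0.998, exact p = 0.00278). Slc6a13 had r = 0.985 with Dcn and 0.98 with Aldh1a2. With its fellow transporters it had r = 0.966 for Slc22a6 and 0.751 for Slc47a1, and these values were not tested against each other. Lum and Ogn, which lie on different chromosomes, had r = 0.96.

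These relations rest on few libraries. The 2 libraries farthest from the median were found for the gene listed first in each pair. Genes early in the list therefore count more often. On that basis wild type replicates 1 and 2 were the farthest in 35 of the 36 pairs, which are not independent of each other. Without the 2 farthest libraries, r over the 4 others ran from -0.87 to 0.97 with a median of 0.22 and was negative in 15 pairs. Leaving out the most extreme libraries narrows the range and tends by itself to lower r. These values therefore cannot decide whether the members vary together. Dcn with Aldh1a2 kept r = 0.97. Islr with Fmod had r = 0.92, but for this pair wild type replicates 2 and 3 were left out and replicate 1 stayed in. Slc6a13 with Ogn was then at -0.87, and Slc6a13 with Lum at -0.83.

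**Figure D4:**
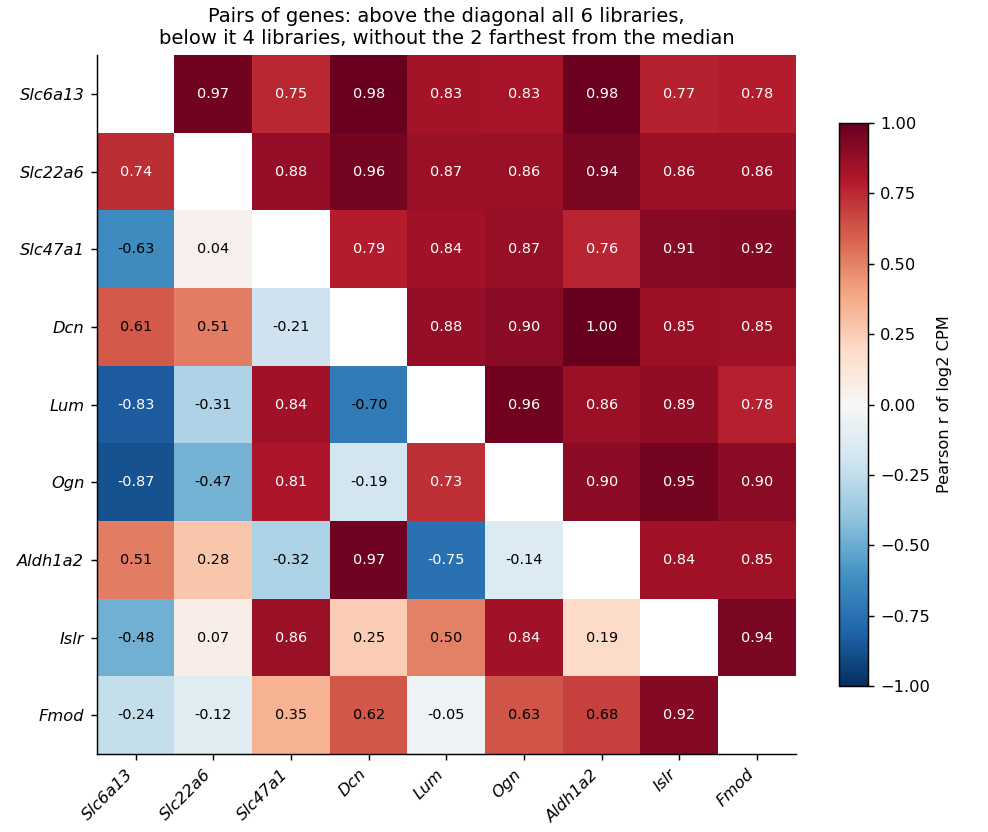
Pearson's r of log2 CPM for each pair of the 9 genes, above the diagonal over all 6 libraries and below it over the 4 libraries left after removing the 2 farthest from the median of the gene listed first. All 36 values are positive above the diagonal, and 15 are negative below it, where removing extreme libraries tends by itself to lower r.

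Levels between genes are compared per kilobase of exon. In mean CPM per kilobase over the 6 libraries the order was Islr (5.97), Ogn (5.60), Fmod (4.38), Dcn (2.98), Aldh1a2 (2.39), Slc6a13 (2.34), Lum (1.58), Slc22a6 (1.28) and Slc47a1 (1.09). Among wild type libraries the values of every gene overlapped those of the next in this order. Among heterozygous libraries 4 steps had no overlap. Islr, at 5.21 to 5.98 CPM per kilobase, lay above Ogn at 4.33 to 4.54, Ogn above Fmod at 3.13 to 4.12, Fmod above Dcn at 1.98 to 2.3, and Slc6a13 at 1.78 to 1.98 above Lum at 0.88 to 1.41.

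Relatives of the members differed in pattern. Of 13 other small leucine-rich proteoglycans 11 were tested, and 8 had a lower and 3 a higher fitted level, with a median log2 difference of -0.33. None of the 11 passed edgeR's test. At an unadjusted p under 0.05 stood 2, both lower, where 3.38% of all genes tested were lower at that level. Ecm2 lies near Ogn on chromosome 13, with Aspn and Omd between them. It was at 3.49, 3.87 and 4.03 CPM in heterozygous libraries, against 5.22, 6.51 and 5.60 CPM in wild type libraries. Its groups did not overlap, where 5.85% of all genes tested lay lower without overlap, and wild type replicate 3 was not low. The log2 difference of Ecm2 was -0.61 (SE 0.13), with an adjusted p of 0.719 by edgeR and 0.0216 by DESeq2. Its neighbour Aspn, a proteoglycan of cartilage, differed by 0.03 (SE 0.25), and Omd, osteomodulin of bone, by -0.41 (SE 0.30).

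Prelp, which anchors basement membranes and lies near Fmod on chromosome 1, was at 6.62, 6.06 and 6.69 CPM in heterozygous libraries, against 8.15, 7.15 and 8.01 CPM in wild type libraries. These groups did not overlap either, and the log2 difference was -0.27 (SE 0.10, adjusted p = 0.841 by edgeR). Bgn, biglycan, the closest relative of decorin, lies on the X chromosome. It was at 8.63, 8.02 and 7.72 CPM in heterozygous libraries, against 11.0, 18.4 and 6.42 CPM in wild type libraries. Wild type replicates 1 and 2 were highest here and wild type replicate 3 lowest, and the log2 difference was -0.56 (SE 0.30). Kera, keratocan of the cornea, which lies beyond Lum, had at most 0.0907 CPM in any library and was not tested.

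Of 16 other organic solute transporters 15 were tested, with 10 lower, 5 higher and 0 passing. At an unadjusted p under 0.05 stood 3, all lower, where 3.38% of all genes tested were lower at that level. Slc6a12, the betaine carrier next to Slc6a13 on chromosome 6, was at 0.848, 0.873 and 0.791 CPM in heterozygous libraries, against 1.02, 2.03 and 1.68 CPM in wild type libraries. The groups did not overlap, where 5.85% of all genes tested lay lower without overlap. The log2 difference of Slc6a12 was -0.91 (SE 0.26, adjusted p = 0.789 by edgeR). Slc22a8, the organic anion transporter beside Slc22a6, was at 10.2, 9.53 and 13.4 CPM in heterozygous libraries, against 16.2, 15.5 and 9.16 CPM in wild type libraries. Here too wild type replicate 3 was lowest, and the difference was -0.30 (SE 0.21). The astrocyte GABA carrier Slc6a11 differed by -0.14 (SE 0.07). Slc47a2, beside Slc47a1, had at most 0.0946 CPM and was not tested.

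Of 16 other retinoid genes 15 were tested, with 13 lower, 2 higher and 0 passing. Their list level was highest in wild type replicate 3, at 0.27, against -0.26 and -0.02 in wild type replicates 1 and 2. It was -0.59, -0.10 and 0.13 in heterozygous libraries. This level is a mean of log2 values, in which genes that range widely weigh most. Rarb (9.94, 13.3 and 35.7 CPM), Rxrg (0.911, 3.86 and 19.4 CPM) and Crabp1 (0.118, 0.427 and 1.81 CPM in wild type libraries) were highest in wild type replicate 3. For Rxrg the highest library was 29.3-fold and for Crabp1 41.7-fold above the lowest. Rara and Aldh1a3 were instead lowest in wild type replicate 3. The level of the list without its most variable genes was not computed, so no contrast with the members is drawn. At an unadjusted p under 0.05 stood 2 lower genes and 1 higher gene. Of all genes tested 3.38% were lower at that level, and 5.85% lay lower without overlap. The retinol carrier of blood plasma, Rbp4, differed by -0.40 (SE 0.11), with groups that did not overlap, and the retinoic acid receptor Rara by 0.37 (SE 0.16). The related enzyme Aldh1a1 was at 88.3, 72.3 and 83.4 CPM in heterozygous libraries, against 76.2, 89.8 and 95.2 CPM in wild type libraries. Aldh1a3, the third enzyme of this kind, was at 0.925, 1.19 and 1.16 CPM in heterozygous libraries, against 2.07, 1.46 and 0.442 CPM in wild type libraries. Both overlapped, with differences of -0.10 (SE 0.10) and -0.28 (SE 0.44). Islr2 differed by 0.29 (SE 0.10, adjusted p = 0.828 by edgeR), the sign opposite to that of Islr.

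Other markers of meningeal and perivascular fibroblasts were mostly at lower levels in heterozygous cortex, without passing the test. Of 29 tested, 26 had a lower and 3 a higher fitted level, with a median log2 difference of -0.41. At an unadjusted p under 0.05 by edgeR stood 14, all lower, where 3.38% of all genes tested were lower at that level. None passed edgeR's test. Wild type replicates 1 and 2 lay above every heterozygous library for 22 of the 29, and for 14 of these wild type replicate 3 did not. Among all genes tested, 11.4% had wild type replicates 1 and 2 above, and 5.58% had this with wild type replicate 3 not above. Igfbp2, which binds and modulates insulin-like growth factors, stayed high in wild type replicate 3, at 21.7, 16.2 and 19.8 CPM in heterozygous libraries against 30.0, 35.9 and 32.4 CPM in wild type libraries. Its log2 difference was -0.77 (SE 0.11), with an adjusted p of 0.374 by edgeR and 1.66e-06 by DESeq2. The transcription factor Foxd1 (-0.71, SE 0.19) and the collagen chain Col1a1 (-0.87, SE 0.25) likewise had groups without overlap. These markers are named for their small p. Groups did not overlap for 8 of the 29, where 5.85% of all genes tested lay lower without overlap. The 3 with a higher fitted level were Col6a1 (0.25, SE 0.13), Cemip (0.19, SE 0.16) and Mgp (0.10, SE 0.37). The adjusted p of Col1a1 was 0.789 by edgeR and 0.0399 by DESeq2. Of the 29, DESeq2 called 2, Igfbp2 and Col1a1, beside 0.251% of all genes to which it gave an adjusted p. The list chosen here summed to 626 to 691 CPM in heterozygous and 643 to 1030 CPM in wild type libraries. Most of this sum was Ptgds, at 366 to 399 and 380 to 612 CPM in the same order.

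Lists of markers of other cells differed in how far their levels followed those of the members, and some did not follow them. Their part in the members' values was not tested. Macrophages of the brain borders, which share the meninges with the fibroblasts, had list levels of -0.37, -0.45 and -0.51 in heterozygous libraries, against 0.31, 0.23 and -0.53 in wild type libraries, as mean log2 CPM with the wild type mean at 0. All 7 of their markers had a lower fitted level, and they summed to 16.5 to 17.2 CPM in heterozygous and 15.3 to 26.1 CPM in wild type libraries. Pericyte markers were lower for 7 of 9 (251 to 261 against 261 to 323 CPM). Endothelial markers were lower for 9 of 10 (207 to 215 against 217 to 250 CPM). The pericyte sum was mostly Rgs5, at 179 to 185 against 177 to 232 CPM. List levels of pericytes were -0.31 to -0.23 in heterozygous and -0.09 to 0.10 in wild type libraries. Those of endothelium were -0.22 to -0.17 and -0.08 to 0.06, so neither overlapped. At an unadjusted p under 0.05 by edgeR, 5 pericyte and 5 endothelial markers were lower and 0 higher. Of all genes tested 3.38% were lower at that level. Smooth muscle markers, lower for 5 of 5, were high in wild type replicate 2 alone, with a list level of 0.64 there against -0.37 and -0.27 in wild type replicates 1 and 3 and -0.49 to -0.32 in heterozygous libraries.

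Blood cell markers (4 of 6 lower, 21.3 to 23.9 against 24.3 to 30.6 CPM) and microglia markers (6 of 6 lower, 302 to 332 against 329 to 365 CPM) were also measured. Choroid plexus markers summed to 4.07 to 9.29 CPM in heterozygous and 6.57 to 14.2 CPM in wild type libraries, highest in wild type replicate 3, where the members were low. Their list levels overlapped between the genotypes. Excitatory neuron markers (2 of 5 lower, 3000 to 3310 against 3070 to 3330 CPM) and astrocyte markers (5 of 5 lower, 3490 to 3770 against 3700 to 3800 CPM) had median log2 differences of 0.04 and -0.07. Oligodendrocyte markers were higher for 5 of 5, at 8320 to 12100 CPM in heterozygous and 6860 to 8860 CPM in wild type libraries. In each of these lists 0 markers passed edgeR's test and 0 were at 0 counts in every library. DESeq2 called 1 of these markers, Vtn of pericytes, which encodes vitronectin. It was at 38.2, 36.1 and 37.4 CPM in heterozygous libraries, against 48.6, 58.2 and 44.9 CPM in wild type libraries, without overlap. Its log2 difference was -0.44 (SE 0.09), with an adjusted p of 0.719 by edgeR and 0.0172 by DESeq2.

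**Figure D5:**
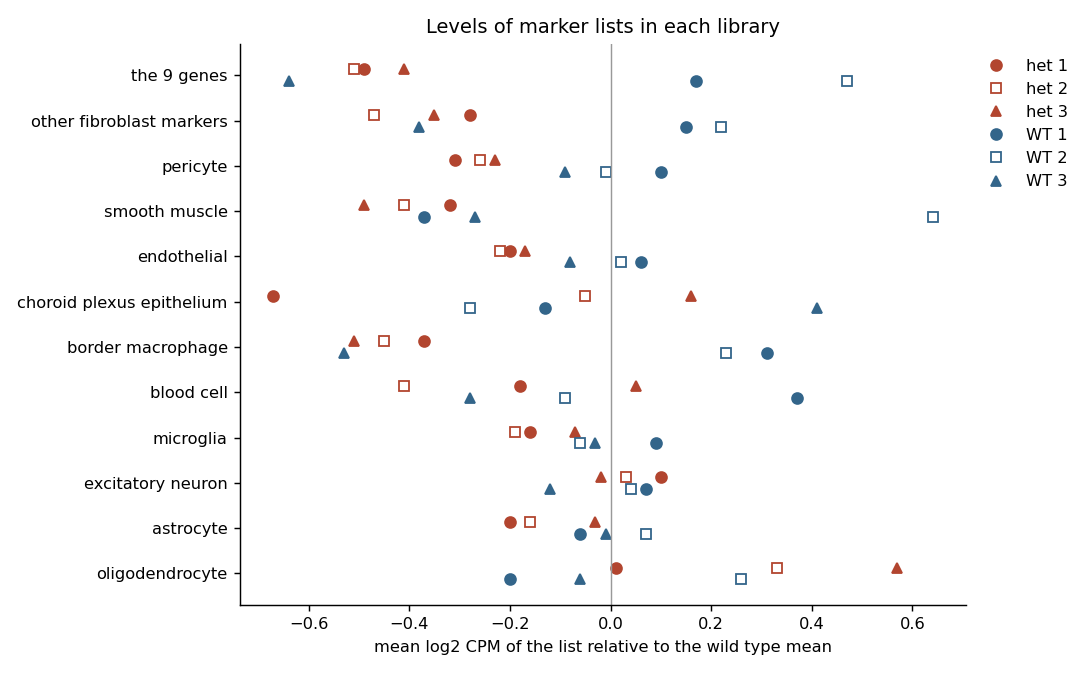
Mean log2 CPM of the 9 genes and of marker lists of other cell types (rows) relative to the wild type mean (horizontal axis), with heterozygous libraries in red above wild type libraries in blue. Border macrophage and other fibroblast markers place wild type replicate 3 among or below the heterozygous libraries as the 9 genes do. Blood cell, excitatory neuron and oligodendrocyte markers also place it there. Smooth muscle markers place wild type replicate 2 alone on the right.

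The genes whose pattern was most like that of the members were found by Pearson's r between their log2 CPM and the members' mean level over the 6 libraries, among 14157 genes. These had a mean of at least 1 CPM, and left out the members and genes named only as predicted models or clones. Of these 1.24% had an r above 0.9, and with 6 libraries such values carry no test. Itm2a, a membrane protein counted here among the endothelial markers, came first (r = 0.998), at 62.3, 62.9 and 64.5 CPM in heterozygous libraries against 79.5, 87.3 and 60.9 CPM in wild type libraries. Ptgds, the prostaglandin D synthase of the leptomeninges and choroid plexus and one of the other fibroblast markers counted here, had r = 0.988, at 389, 366 and 399 CPM in heterozygous libraries against 539, 612 and 380 CPM in wild type libraries. Both show wild type replicate 3 near the heterozygous level. The others of the top 10 were mt-Nd2 (0.991), mt-Ti (0.987), Mrps35 (0.989) and Ndufa12 (0.988), which act in mitochondria, the ribonuclease Ang (0.988), Ostf1 (0.984), Rprd1a (0.983) and Phldb2 (0.981). Their log2 differences ran from -0.41 for Ptgds to -0.04 for Rprd1a.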

How the data were processed

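The deposited files hold raw counts of reads per gene, whole numbers with no normalization by the authors, in 1 table per library with versioned Ensembl identifiers. Per the submitters' processing notes, Bowtie2 2.3.4.3, featureCounts, DESeq2 and FastQC were used with builds mm10 and GRCm38.p6. Neither order, settings nor strand mode is given in the sources used here. Per the labels' protocols, RNA was extracted with Trizol and treated with DNase I. The TruSeq v2 kit does not mark strand. Bowtie2 alone does not span introns, so reads over exon junctions may be missing if the genome was searched, which bears on levels between genes.

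All 55450 identifiers matched GENCODE M21. Genes were kept by filterByExpr (minimum count 10, minimum total 15), which left 27939, scaled with TMM and tested with glmQLFit and glmQLFTest of edgeR 4.0.16 (R 4.3.3), with no covariate, Benjamini-Hochberg adjustment and a threshold of 0.05. The biological coefficient of variation in common was 16.1%. CPM use TMM-scaled library sizes, log2 CPM a prior count of 1. Library precision is that of counting plus the spread between 3 libraries, and a count of 0 allows up to 0.0323 to 0.0362 CPM (3 counts).

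The members and lists were chosen with earlier results of these data known. All 9 members are named. The 10 most similar genes exclude members and genes named only as predicted models or clones. From other lists, up to 4 genes by smallest p and fixed neighbours or relatives of the members could be named, and some of these are not reported here. Of 30 other fibroblast markers 29 matched a symbol. Alternatives were other scalings, filters, tools (DESeq2 1.42.0, limma 3.58.1), an adjusted p of 0.1, the library's sex read from Xist as a covariate, and each library left out.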

Additional observations from a re-analysis of the deposited data

How the results depend on the processing

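Over 17 alternative fits, all 153 values of the 9 members kept a negative sign and 0 passed an adjusted p under 0.05, with a lowest value of 0.101 (Ogn without wild type replicate 3). All 9 members lay below wild type in each fit and 0 were called, also at an adjusted p under 0.1. The members' median log2 difference ran from -0.81 to -0.32 with single libraries left out, and from -0.61 to -0.53 in the other fits, with -0.55 under the sex covariate. With no library left out, a member's difference was 0.72 to 1.43 times its value in edgeR's quasi-likelihood fit. The count of genes called over the whole table was 0 there, with 1628 at an unadjusted p under 0.05. It was 62 with DESeq2, 29 with edgeR's likelihood ratio test, 6 with every gene that had a count, 2 in limma-voom with library quality weights, 0 in limma-voom without them, 1 with robust estimation and 1 at an adjusted p under 0.1. Single libraries left out gave 0 to 2, the 2 without wild type replicate 2. The cause of these changes was not tested. No paired analysis was possible because the labels give no replicate numbers, and the numbers used here follow record order. Depth does not limit the members, which had at least 162 counts in each library.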

Other observations

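Proportions among the proteoglycans varied between libraries. Lum stood at 16.2%, 30.0% and 19.4% of the Dcn level (CPM over CPM) in heterozygous replicates 1 to 3, and at 24.0%, 24.9% and 14.2% in wild type replicates 1 to 3. Ogn stood at 86.1%, 101% and 82.7% of Dcn in heterozygous libraries, and at 91.0%, 78.4% and 58.5% in wild type libraries. Both of these were highest in heterozygous replicate 2 and lowest in wild type replicate 3. Fmod stood at 103%, 89.6% and 94.6% of Dcn in heterozygous libraries, and at 102%, 59.3% and 75.8% in wild type libraries, highest in heterozygous replicate 1 and lowest in wild type replicate 2. The genotypes overlapped for all 3 proportions. Epyc, epiphycan, a cartilage proteoglycan in the same cluster of genes as Dcn and Lum on chromosome 10, was at 0.979, 1.10 and 1.85 CPM in heterozygous libraries, against 0.686, 0.910 and 5.67 CPM in wild type libraries. Wild type replicate 3, the lowest library for Lum, was thus the highest for Epyc.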
